A study of Mus musculus with 9 samples.

Results

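The lysosomal proton pump and hydrolase genes are 50 mouse genes chosen by name, from a list of vacuolar ATPase subunits, cathepsins, glycosidases, lysosomal membrane proteins and genes around the transcription factor TFEB. All 50 were found among the 47729 genes of the deposited expression table, and all 50 were among the 15623 genes that could be tested. They were read in cultured synovial fibroblasts from the paws of wild-type BALB/c mice, in 3 groups of 3 RNA sequencing libraries. Naive cultures came from paws that received no injection. Non-primed cultures came from right paws injected with monosodium urate (MSU) crystals, the crystals of gout, on day 9. Primed cultures came from left paws, which had a first MSU injection on day 0 and a second on day 9. RNA was taken on day 18, and the cells, released from the paw by collagenase, were grown for 5 passages. A primed and a non-primed culture never came from the same paw, but they may share a mouse, and the library numbers do not identify mice. The p-values therefore measure the spread between these libraries, which may be technical. The age and sex of the mice were not used here.

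The lysosome digests material that reaches it by endocytosis, phagocytosis and autophagy. The vacuolar ATPase acidifies it: its cytosolic V1 head hydrolyses ATP and its membrane-embedded V0 sector carries protons into the lumen, where cathepsins cut proteins, glycosidases trim sugar chains and acid lipase splits cholesteryl esters. TFEB and the related factor TFE3 bind short E-box sequences in the promoters of many of these genes and raise their transcription when they enter the nucleus. Synovial fibroblasts line the joint and shape its matrix, partly through secreted proteases such as cathepsin K, and resident macrophages of the same lining take up crystals.

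Values are regularised log2 expression levels (rlog), so a difference of 1 is a doubling, and the transformation draws weakly expressed genes towards their mean and understates their differences. The depth of each library is unknown. Differences are given with the standard error (SE) of a limma fit to all 9 libraries, and a gene passed at a Benjamini-Hochberg adjusted p below 0.05 over the 15623 genes. The comparisons of primed and of non-primed with naive cultures share the 3 naive libraries. The fibroblast label was checked against fixed markers: the mean rlog of 11 fibroblast markers was 13.9 to 14.6 in every library. Macrophage markers were also present. The highest of them, Lyz2, had group means of 15.96 (primed), 15.76 (non-primed) and 13.76 (naive). The fibroblast marker Vim stood at 15.95, 15.98 and 15.71 in the same order. These levels are not scaled by exon length, which is 1316 bases for Lyz2 and 4743 for Vim. The next highest macrophage marker, C1qa, had a primed mean of 11.46. Which cells the lysosomal transcripts came from was not tested. The mean of 16 macrophage markers, none of them at 0, was 7.31, 9.47 and 7.03 in naive libraries 1 to 3, 9.45 to 9.97 in the non-primed libraries and 9.23 to 10.39 in the primed ones. All 16 had higher means in both injected groups than in naive, with median differences of 1.80 for non-primed and 1.95 for primed, and none passed the test. Naive library 2 thus had a macrophage marker level inside the range of the injected libraries and stood apart from the other 2 naive libraries. In bulk RNA, a different share of a cell type and a different amount of RNA per cell cannot be told apart. Lymphocyte and neutrophil or mast cell markers and 4 of 5 osteoclast markers (Calcr, Ocstamp, Dcstamp and Oscar) were below the level filter. Against naive, 5 adipocyte markers had a median difference of -1.53 in primed (-2.15 to 0.21) and -2.10 in non-primed cultures (-2.83 to 0.03), with Fabp4 and Lpl close to 0. The mean of the 5 was 8.94, 9.31 and 6.62 in naive libraries 1 to 3 and 6.59 to 7.70 in injected ones. The 3 skeletal muscle markers differed by 0.51 to 1.51 in primed and by 0.81 to 1.47 in non-primed cultures. None of these markers passed the test, and their part in the results was not tested.

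Lysosomal genes were mostly higher in cultures from injected paws than in naive cultures. In primed against naive cultures, 3 members rose: Atp6v1b2, a subunit of the ATP-hydrolysing head of the pump, Fuca2, an alpha-L-fucosidase, and Lipa, the lysosomal acid lipase. In non-primed against naive cultures, Atp6v1b2 and Fuca2 rose, and Lipa missed the threshold. No member fell in either comparison, where 0.0064% and 0.0256% of all tested genes fell. The 3 called members of 50 in primed against naive compare with 0.102% of all tested genes, and the 2 called in non-primed against naive with 0.141%. By the F statistic over the 3 groups, which 0.0704% of tested genes passed, Atp6v1b2 (adjusted p = 0.0395) and Fuca2 (adjusted p = 0.0396) passed in limma and Lipa did not (adjusted p = 0.0616).

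The shift reached beyond the called genes. The members were chosen with earlier results of these data known, so the shares below describe the list and do not test it. Of the 50 members, 45 had a higher mean in primed than in naive cultures and 43 in non-primed than in naive, against 49.8% and 51.7% of all tested genes; after quantile normalization the counts were 43 and 41. The median member difference was 0.28 for primed and 0.21 for non-primed cultures, while the medians of all tested genes were -0.00 and 0.01. All primed libraries lay above all naive libraries for 25 members and below them for 0, against 8.97% and 8.18% of all tested genes. All non-primed libraries lay above all naive ones for 22 members and below them for 1, Tfe3, against 11.6% and 10.3%. At an unadjusted p below 0.05, 28 members were higher in primed and 18 in non-primed cultures, and 0 were lower in either, where 9.43% and 8.58% of all tested genes were higher and 7.43% and 6.84% lower (16.9% and 15.4% in either direction).

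**Figure D1:**
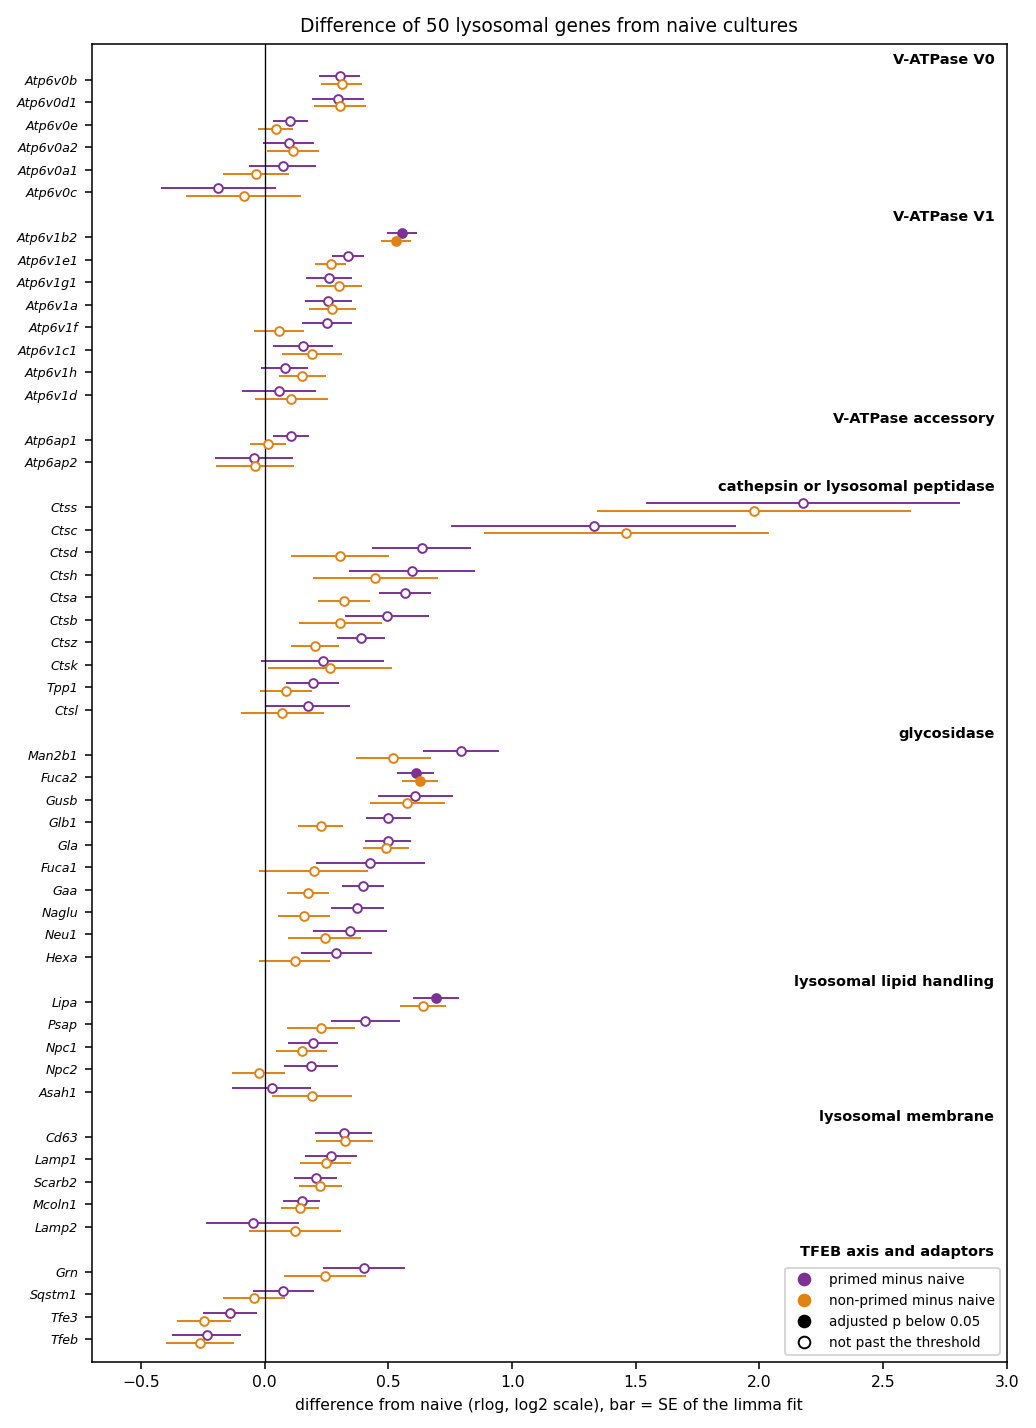
Difference of each of the 50 genes from naive cultures on the rlog (log2) scale, grouped by role, for primed (purple) and non-primed (orange) cultures, with bars for the SE of the limma fit and filled points for an adjusted p below 0.05. Most points lie to the right of 0, 45 of 50 for primed and 43 of 50 for non-primed cultures, Ctss and Ctsc have the widest bars, and Tfeb and Tfe3 lie to the left.

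Because TFEB binds E-boxes near the start of lysosomal genes, the promoters of the members were read for the letters TCACGTG on either strand. The RefSeq windows ran from 250 bases before to 50 after an annotated start (GRCm38.p6). Some starts lie inside the gene span, as for Ctsa and Atp6v0e. Windows, 48 in all, were used for 41 members, all but Atp6v0a2, Atp6v1b2, Atp6v1c1, Atp6v1g1, Atp6v1h, Asah1, Ctsb, Ctsh and Npc1. Of these 41 members, 12 (29.3%) held a match in any of their windows. Of the other genes of the lysosomal pathway, 18 of 85 (21.2%) held one, against 1160 of 27025 genes (4.29%) in all and 751 of 11012 tested genes (6.82%). The shorter core CACGTG, which every TCACGTG contains, was in 13 members (31.7%), in 24.7% of the other pathway genes, in 8.09% of all genes and in 11.5% of tested genes. The palindrome TCACGTGA was in 7 members (17.1%), in 8.24% of the other pathway genes, in 1.12% of all genes and in 2.13% of tested genes. The same palindrome preceded by G and followed by C was in 0 of the 41 members, in 2.35% of the other pathway genes, in 0.37% of all genes and in 0.781% of tested genes. A match describes the letters only and is not a measured binding site.

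The 80 bases before the start of Lamp1, which encodes the most used lysosomal membrane marker, are shown because they hold 4 matches (chr8:13159081-13159160, plus strand). The same stretch of Lipa, 1 of the called members, is shown beside it because it holds none (chr19:34527475-34527554, minus strand). Capitals mark each match on either strand.
Lamp1: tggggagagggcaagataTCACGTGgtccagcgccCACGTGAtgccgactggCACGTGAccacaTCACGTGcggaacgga
Lipa: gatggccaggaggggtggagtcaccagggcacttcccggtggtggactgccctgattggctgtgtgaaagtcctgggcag

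The match nearest the start, with 10 bases on each side, is shown for 6 further members so that the flanks can be compared. These are the pump genes Atp6v1a (chr16:44139374-44139401, minus strand) and Atp6v0d1 (chr8:105566051-105566078, minus strand), the protease genes Ctsd (chr7:142387909-142387936, minus strand) and Ctsa (chr2:164833767-164833794, plus strand), and the glycosidase genes Glb1 (chr9:114401019-114401045, plus strand) and Gla (chrX:134601183-134601210, minus strand). Capitals mark the match.
Atp6v1a: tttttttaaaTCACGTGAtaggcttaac
Atp6v0d1: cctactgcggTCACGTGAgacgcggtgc
Ctsd: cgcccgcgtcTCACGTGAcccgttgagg
Ctsa: atgcagatgcTCACGTGAccagagctac
Glb1: tgcttctgagTCACGTGgcctacagag
Gla: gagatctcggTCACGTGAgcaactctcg

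**Figure D2:**
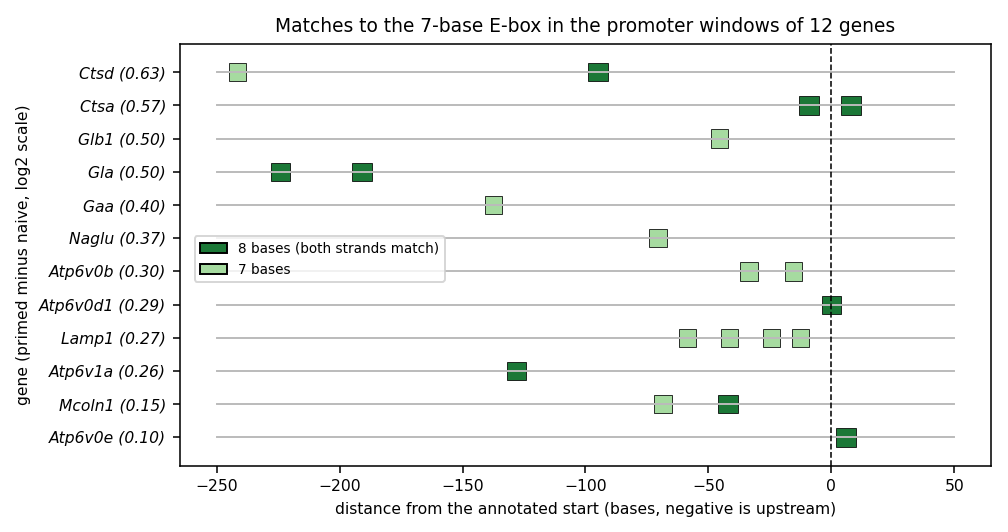
Position of each match to TCACGTG on either strand in the promoter windows of the 12 members that hold one, as distance in bases from the annotated start of the window, with the primed minus naive difference (log2 scale) beside each name. Lamp1 has 4 matches in the bases just before the start, and the genes are ordered by their difference from Ctsd (0.63) down to Atp6v0e (0.10).

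The 12 members with a match had a median difference of 0.34 in primed against naive cultures and 0.26 in non-primed against naive, and all 12 had higher means in both. The 29 members with a window and no match had medians of 0.25 and 0.20, with 24 and 22 of them higher. In primed against non-primed cultures the order was the other way. The medians there were 0.04 with a match and 0.10 without, with 9 of 12 and 20 of 29 higher. The difference between members with and without a match was not tested. None of the 12 with a match passed the test in any comparison. Of the called members, Fuca2 and Lipa had a window without a match. The other matches were in Atp6v0b, Atp6v0e, Gaa, Naglu and Mcoln1.

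Among the 8 members of the V1 head, all had higher means in both injected groups than in naive cultures, with medians of 0.25 for primed and 0.23 for non-primed, and Atp6v1b2 passed in both. Atp6v1b2 (ENSMUSG00000006273, GRCm38 chr8:69088646-69113711, plus strand) encodes the B2 subunit of the ATP-hydrolysing ring. Its rlog was 11.31, 11.36 and 11.29 in naive libraries 1 to 3, 11.84, 11.89 and 11.83 in the non-primed ones and 11.86, 11.91 and 11.86 in the primed ones. The 6 injected libraries lay together and well above the 3 naive ones. The difference from naive was 0.56 (SE 0.06, limma adjusted p = 0.0345) for primed and 0.53 (SE 0.06, adjusted p = 0.0303) for non-primed cultures. It shares 590 bases with the antisense gene Slc18a1, and whether the counting used strand is not given in the sources used here. Reads of antisense partners can likewise not be told apart for Ctsa, which shares 1515 bases with Pltp, Lamp1, which shares 3317 with Grtp1, Ctsc, which shares 4743 with Gm26522, Atp6v0b, which shares 1670 with Gm12841, Npc1, which shares 4908 with Gm15956, Atp6v0a2, which shares 2459 with 4930404A12Rik, Ctsl, which shares 1971 with Gm47123, and further members with shorter antisense overlaps; these are overlaps of whole gene spans, introns included, and Fuca2 and Lipa overlap no other annotated gene.

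Atp6v1e1, which encodes a stalk subunit that links the head to the membrane sector, was the next of the V1 genes. It stood at 11.81, 11.76 and 11.88 in naive, 12.07, 12.06 and 12.11 in non-primed and 12.15, 12.13 and 12.18 in primed libraries, and no groups overlapped. The difference from naive was 0.34 (SE 0.06, adjusted p = 0.0999) for primed and 0.27 (SE 0.06, adjusted p = 0.133) for non-primed cultures in limma, which did not pass. Atp6v1a, the catalytic subunit, and Atp6v1g1, another stalk subunit, were above naive in every injected library, by 0.26 each for primed and by 0.27 and 0.30 for non-primed cultures, without passing. The primed libraries of Atp6v1f lay above all naive ones (0.25), whereas its non-primed libraries overlapped with naive (0.06). Atp6v1c1, Atp6v1d and Atp6v1h had differences of 0.06 to 0.19 and overlapping groups.

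Of the 6 members of the V0 sector, 5 had higher means in primed and 4 in non-primed cultures, the medians were 0.10 and 0.08, and none passed. Atp6v0b, a proteolipid of the proton-carrying ring, stood at 10.35, 10.57 and 10.33 in naive, 10.70, 10.77 and 10.71 in non-primed and 10.74, 10.77 and 10.64 in primed libraries. Its naive libraries lay below all others, and the differences were 0.30 (SE 0.08, adjusted p = 0.162) for primed and 0.31 (SE 0.08, adjusted p = 0.163) for non-primed cultures in limma. Atp6v0d1, which couples the sector to the rotating stalk, stood at 11.38, 11.34 and 10.99 in naive, 11.60, 11.47 and 11.55 in non-primed and 11.54, 11.50 and 11.56 in primed libraries. Its groups did not overlap with naive either, with differences of 0.29 for primed and 0.30 for non-primed cultures and an adjusted p of 0.228 in limma for both. Atp6v0a1, Atp6v0a2 and Atp6v0e had differences of -0.04 to 0.11. Atp6v0c, the other proteolipid, stood at only 4.45 to 5.25, close to the 4.29 to 5.35 of its pseudogene Atp6v0c-ps2. Reads of near-identical copies may have been split or dropped in counting, so its level is uncertain. The accessory subunits Atp6ap1 and Atp6ap2 differed from naive by -0.04 to 0.11.

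All 10 glycosidases had higher means in both injected groups, with medians of 0.46 for primed and 0.23 for non-primed cultures, and the injected libraries all lay above the naive ones for 8 of the 10 in primed cultures (8.97% of all tested genes) and for 6 of the 10 in non-primed cultures (11.6%). Fuca2 (ENSMUSG00000019810, GRCm38 chr10:13499540-13519035, plus strand) removes fucose from glycoproteins. Its rlog was 10.95, 11.08 and 10.93 in naive, 11.59, 11.58 and 11.67 in non-primed and 11.51, 11.68 and 11.61 in primed libraries. The injected libraries lay above the naive ones by more than the spread within any group. The difference was 0.61 (SE 0.07, adjusted p = 0.0345) for primed and 0.63 (SE 0.07, adjusted p = 0.0303) for non-primed cultures in limma. Fuca1, the main lysosomal fucosidase, differed by 0.43 (SE 0.22) and 0.20 (SE 0.22) and did not pass.

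Gla, alpha-galactosidase A, stood at 10.96, 10.73 and 10.69 in naive, 11.29, 11.17 and 11.39 in non-primed and 11.25, 11.34 and 11.28 in primed libraries. Its 2 injected groups were level with each other and above naive, by 0.50 (SE 0.09, adjusted p = 0.0999) and 0.49 (SE 0.09, adjusted p = 0.0871) in limma. Gusb, the beta-glucuronidase, stood at 11.79, 11.94 and 11.32 in naive, 12.25, 12.23 and 12.30 in non-primed and 12.40, 12.36 and 12.12 in primed libraries. Naive library 3 was the lowest, and the differences were 0.61 (SE 0.15) and 0.58 (SE 0.15). Man2b1, the lysosomal alpha-mannosidase, stood at 11.84, 11.91 and 11.34 in naive, 12.18, 12.33 and 12.13 in non-primed and 12.54, 12.61 and 12.32 in primed libraries. It had the largest difference among glycosidases in primed cultures, 0.79 (SE 0.15, adjusted p = 0.0999 in limma), with 0.52 (SE 0.15) in non-primed ones.

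Glb1, the beta-galactosidase, stood at 11.60, 11.66 and 11.42 in naive, 11.74, 11.86 and 11.75 in non-primed and 12.02, 12.18 and 11.97 in primed libraries. The 3 groups formed separate steps, with differences from naive of 0.50 (SE 0.09, adjusted p = 0.0956) and 0.23 (SE 0.09, adjusted p = 0.287) in limma. Glb1 shares 6172 bases with Tmppe on the same strand, so part of its count may belong to that gene. Gaa, the acid alpha-glucosidase that degrades glycogen, stood at 12.92, 12.97 and 12.84 in naive, 13.12, 13.13 and 13.00 in non-primed and 13.40, 13.30 and 13.22 in primed libraries, again in steps. Its differences from naive were 0.40 (SE 0.08, adjusted p = 0.110) and 0.18 (SE 0.08, adjusted p = 0.367) in limma. Naglu, an enzyme of heparan sulphate breakdown, stood at 11.03, 11.26 and 10.88 in naive, 11.29, 11.10 and 11.25 in non-primed and 11.44, 11.50 and 11.34 in primed libraries, and only the primed libraries were clear of naive. Hexa, a subunit of beta-hexosaminidase, and Neu1, a sialidase, differed by 0.29 and 0.34 in primed cultures and by 0.12 and 0.24 in non-primed ones, with overlapping groups.

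**Figure D3:**
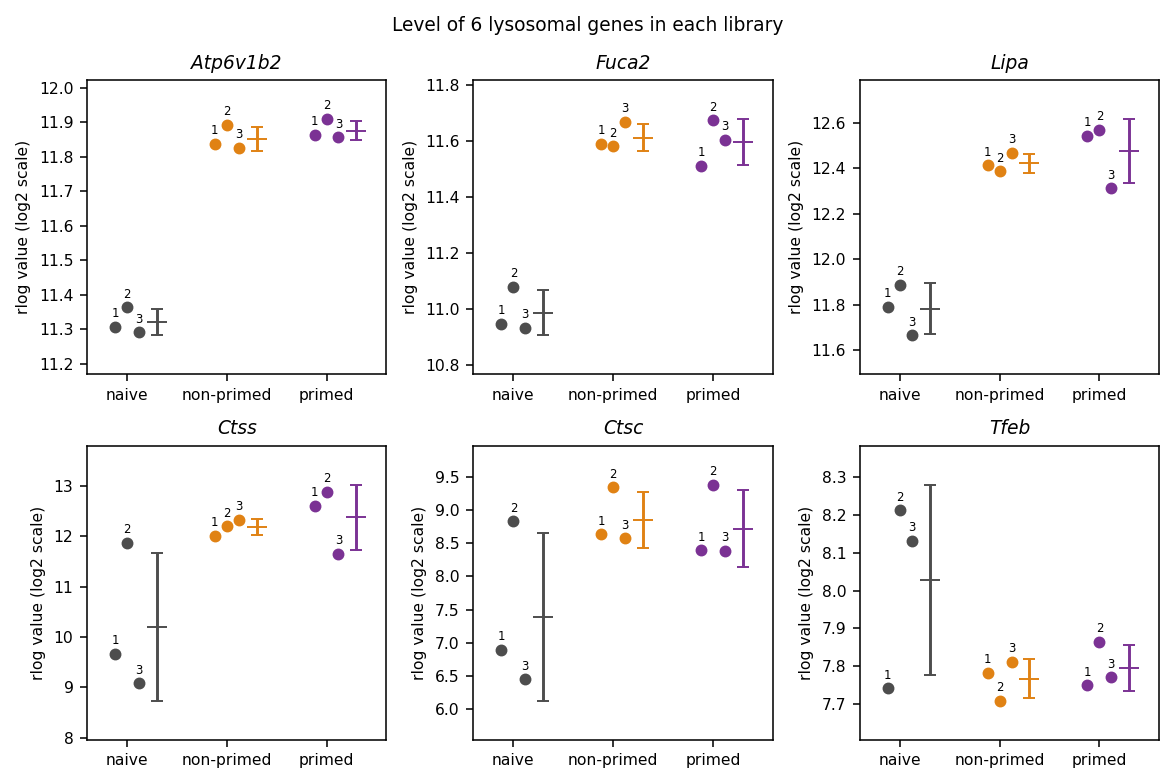
The rlog value (log2 scale) of Atp6v1b2, Fuca2, Lipa, Ctss, Ctsc and Tfeb in each of the 9 libraries, numbered within their group, with the group mean and SD (n = 3); each panel has its own vertical axis, which does not start at 0. Naive library 2 lies with naive libraries 1 and 3 for Atp6v1b2, Fuca2 and Lipa, and near the injected libraries for Ctss (11.87) and Ctsc (8.83).

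Among the 5 lipid-handling genes, Lipa (ENSMUSG00000024781, GRCm38 chr19:34492318-34527474, minus strand) was the one called. Its rlog was 11.79, 11.89 and 11.67 in naive, 12.41, 12.39 and 12.47 in non-primed and 12.54, 12.57 and 12.31 in primed libraries, with the naive libraries below all the others. The difference was 0.69 (SE 0.09, adjusted p = 0.0468) for primed and 0.64 (SE 0.09, adjusted p = 0.0576) for non-primed cultures in limma. Psap, the precursor of the saposins that help hydrolases reach sphingolipids, was above naive in every injected library, by 0.41 (SE 0.14) and 0.23 (SE 0.14), without passing. The cholesterol exporters Npc1 and Npc2 and the ceramidase gene Asah1 differed by -0.02 to 0.20. Npc2 stood at 14.16, 14.07 and 14.33 in naive, 14.19, 14.11 and 14.19 in non-primed and 14.33, 14.50 and 14.30 in primed libraries, and its primed libraries were above the non-primed ones.

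The 10 cathepsins and peptidases had the largest median in primed cultures, 0.53, with 0.31 in non-primed ones; all 10 had higher means in both groups, 9 of 10 after quantile normalization, and none passed. Ctsa, the protective protein that stabilises beta-galactosidase and neuraminidase, stood at 12.96, 13.12 and 12.93 in naive, 13.27, 13.46 and 13.24 in non-primed and 13.53, 13.72 and 13.46 in primed libraries. The groups formed the same steps as for Glb1, with differences of 0.57 (SE 0.11, adjusted p = 0.0999) and 0.32 (SE 0.11, adjusted p = 0.217) in limma. Ctsz, a carboxypeptidase, stood at 12.63, 12.77 and 12.88 in naive, 12.97, 12.94 and 12.97 in non-primed and 13.11, 13.30 and 13.04 in primed libraries, with differences of 0.39 (SE 0.10) and 0.20 (SE 0.10). Ctsd, the main aspartic protease, was the most abundant member per length of exon, at 15.17 in naive and 15.81 in primed cultures on the scale of rlog minus log2 kilobases. The length joins the exons of all annotated transcripts, 2351 bases for Ctsd and 6489 for Ctsl, so the rank depends on the annotation. Before that scaling, the naive means were 16.40 for Ctsd and 16.17 for Ctsl. Ctsd differed by 0.63 (SE 0.20) and 0.30 (SE 0.20), and shares 6757 bases with the gene model Gm49369 on its own strand. Quantile normalization reduced these values to 0.35 and 0.07.

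Ctss and Ctsc had the largest differences and the widest spread. Ctss, the cathepsin that trims the invariant chain in antigen-presenting cells, stood at 9.67, 11.87 and 9.08 in naive, 12.02, 12.20 and 12.33 in non-primed and 12.60, 12.89 and 11.65 in primed libraries. Naive library 2 reached above the lowest primed library and stood far above the other 2 naive libraries. The differences were 2.18 (SE 0.63, adjusted p = 0.172) and 1.98 (SE 0.63, adjusted p = 0.208) in limma. Ctsc, dipeptidyl peptidase I, which activates the serine proteases of immune granules, stood at 6.89, 8.83 and 6.45 in naive, 8.64, 9.34 and 8.58 in non-primed and 8.39, 9.39 and 8.39 in primed libraries. Its differences were 1.33 (SE 0.58, adjusted p = 0.292) and 1.46 (SE 0.58, adjusted p = 0.279) in limma. Without naive library 2 the differences of Ctss became 3.01 (adjusted p = 0.0082) and 2.81 (adjusted p = 0.0113), and those of Ctsc 2.05 (adjusted p = 0.0335) and 2.18 (adjusted p = 0.026), all past the threshold. With the macrophage marker mean as a covariate they were 0.19 and 0.15 for Ctss and -0.45 and -0.18 for Ctsc, none past it.

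Ctsk, the collagen-degrading cathepsin, lies 17423 bases from Ctss on chromosome 3. It stood at 12.92, 13.67 and 13.99 in naive, 13.84, 13.70 and 13.83 in non-primed and 13.49, 13.85 and 13.94 in primed libraries, with the groups overlapping. The differences were 0.23 and 0.26 (SE 0.25 each) and did not pass. Per length of exon, on the scale of rlog minus log2 kilobases, Ctsk was 12.9 in naive cultures against 9.76 for Ctss, and 13.2 against 11.9 in primed ones. Ctsb, Ctsh, Ctsl and Tpp1 differed from naive by 0.17 to 0.60 in primed and by 0.07 to 0.45 in non-primed cultures.

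The membrane proteins Lamp1, Scarb2 and Cd63 lay above naive in every injected library, and none of the 5 in this role passed. Lamp1 stood at 14.16, 14.14 and 14.37 in naive, 14.51, 14.39 and 14.52 in non-primed and 14.55, 14.49 and 14.44 in primed libraries, with differences of 0.27 and 0.25 (SE 0.10 each). Scarb2, a lysosomal membrane receptor, differed by 0.21 and 0.22 (SE 0.09 each), and the tetraspanin Cd63 by 0.32 in both (SE 0.11). Mcoln1, the calcium channel through which lysosomes signal to TFEB, stood at 10.25, 10.12 and 10.07 in naive, 10.34, 10.23 and 10.30 in non-primed and 10.34, 10.30 and 10.25 in primed libraries, with overlapping groups. Its differences were 0.15 and 0.14 (SE 0.08 each). Lamp2 differed by -0.05 and 0.12 (SE 0.19 each).

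Of the 4 genes of the TFEB axis and adaptors, 2 had higher means in primed and 1 in non-primed cultures than in naive, and none passed. Tfeb stood at 7.74, 8.21 and 8.13 in naive, 7.78, 7.71 and 7.81 in non-primed and 7.75, 7.86 and 7.77 in primed libraries. Naive libraries 2 and 3 were above all the others and naive library 1 was among them, and the differences of -0.23 and -0.26 (SE 0.14 each, adjusted p = 0.414 for both in limma) did not pass. Tfe3 stood at 9.24, 9.12 and 9.06 in naive, 8.83, 9.04 and 8.81 in non-primed and 9.16, 8.93 and 8.89 in primed libraries. Its non-primed libraries lay below all naive ones, with a difference of -0.24 (SE 0.11, adjusted p = 0.333 in limma), and primed cultures were at -0.14. The autophagy adaptor Sqstm1 differed by 0.08 and -0.04. Grn, progranulin, differed by 0.40 and 0.24 (SE 0.16 each), and by -0.01 and -0.14 with the macrophage marker mean as a covariate. These are transcript levels, and the location of the TFEB protein in the cell was not measured.

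**Figure D4:**
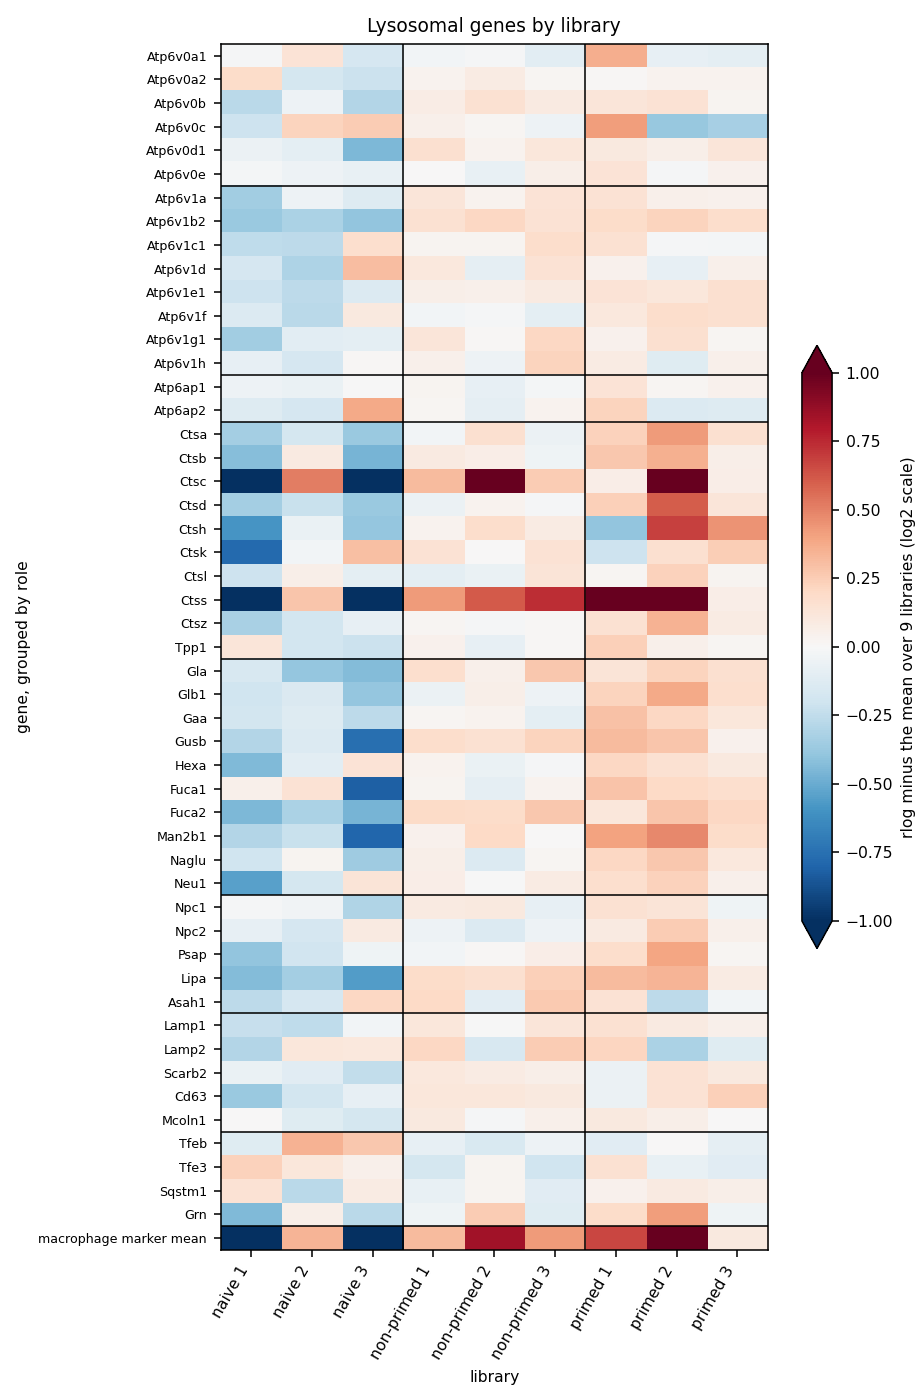
Level of each gene in each library minus its mean over the 9 libraries (rlog, log2 scale; colours end at -1 and 1), with the mean of 16 macrophage markers in the bottom row. Atp6v1b2, Fuca2 and Lipa are below their mean in all 3 naive libraries, whereas Ctss, Ctsc and the macrophage markers are above it in naive library 2.

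Macrophage marker levels differed between naive and injected cultures along with the members. Naive library 2 had a macrophage mean above those of non-primed library 1 and primed library 3. Over the 50 members, 32 (64%) were higher in all 6 injected libraries than in naive library 2, against 30.6% of all tested genes. The median of the injected mean minus naive library 2 was 0.20 for the members and 0.02 for all tested genes, and both values rest on that 1 library. With the macrophage mean as a covariate, the primed and non-primed differences were 0.49 (SE 0.09) and 0.47 (SE 0.08) for Atp6v1b2, 0.51 (SE 0.10) and 0.53 (SE 0.10) for Fuca2, and 0.52 (SE 0.12) and 0.48 (SE 0.11) for Lipa. None passed, with limma adjusted p of 0.257 for the 3 primed differences, and 0.163, 0.163 and 0.194 for the non-primed ones. In that fit 42 members were higher in primed and 40 in non-primed cultures than in naive, against 52% and 52.8% of all tested genes. At an unadjusted p below 0.05, 12 members in place of 28 were higher in primed and 8 in place of 18 in non-primed cultures, against 6.27% and 6.82% of all tested genes. The median member difference was 0.24 for primed and 0.15 for non-primed cultures in that fit. The covariate varied most within the naive group, at 7.31, 9.47 and 7.03, so that fit also leans on naive library 2. Macrophage level and injection cannot be told apart by it.

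The calls were close to the threshold. Atp6v1b2, Fuca2 and Lipa lost their calls when any 1 non-primed library was left out, when primed library 2 or 3 was left out, without the level filter, without the variance trend and when the 2 groups were fitted alone. The call of Lipa was also lost without naive library 1 or primed library 1 and after quantile normalization. Over those and all other settings Atp6v1b2 stayed between 0.49 and 0.58 for primed and between 0.47 and 0.55 for non-primed cultures, Fuca2 between 0.51 and 0.66 and between 0.53 and 0.67, and Lipa between 0.52 and 0.77 for primed cultures. Without naive library 2, 12 members passed in primed and 6 in non-primed cultures, where 2.28% and 2.27% of all tested genes passed.

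Primed and non-primed cultures, compared with each other, ask what a first injection adds to the second. All primed cultures came from left paws and all non-primed ones from right paws, so priming and paw side cannot be told apart. No gene passed in limma, among members or among all genes tested (0%), with a smallest adjusted p of 0.9999, and 197 genes (1.26%) had an unadjusted p below 0.05. At that level 3 members were higher in primed cultures and 0 lower, where 0.57% of all tested genes were higher and 0.691% lower. The 3 were Glb1 at 0.27 (SE 0.09), Gaa at 0.22 (SE 0.08) and Ctsa at 0.25 (SE 0.11). The error of this fit includes the naive libraries, with a median SD of 0.224 against 0.103 in non-primed and 0.138 in primed libraries. With the injected groups fitted alone, again no gene passed. At an unadjusted p below 0.05 in that limma fit, 8 members were higher and 0 lower. The shares of all tested genes were 2.22% and 2.54%. The lack of calls is therefore not evidence of equal levels. Of the 50 members, 33 had higher means in primed cultures, against 50.3% of all genes, with a median of 0.06 against 0.00.

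By role, glycosidases were higher in primed cultures for 9 of 10, with a median of 0.19, and cathepsins and peptidases for 8 of 10, with a median of 0.17. The V1 head was higher for 3 of 8, the V0 sector for 2 of 6 and the membrane proteins for 2 of 5, with medians of -0.03, -0.01 and -0.00. All primed libraries lay above all non-primed ones for 12 members and below them for 0, against 6.31% and 5.25% of all tested genes. The 12 were Glb1, Gaa, Hexa, Fuca1 and Naglu among the glycosidases, Ctsa, Ctsd and Ctsz among the proteases, Atp6v1e1, Atp6v1f, Npc2 and Sqstm1. Atp6v1b2 at 0.02 (SE 0.06), Fuca2 at -0.02 (SE 0.07), Gla at 0.01 (SE 0.09) and Lipa at 0.05 (SE 0.09), in contrast, were close to 0 between the injected groups. The differences between roles were not tested. The macrophage mean ranged from 9.45 to 9.97 in the non-primed and from 9.23 to 10.39 in the primed libraries. Of the 16 macrophage markers, 13 had higher means in primed than in non-primed cultures, with a median of 0.19, and none passed. Their part in the differences between roles was not tested.

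**Figure D5:**
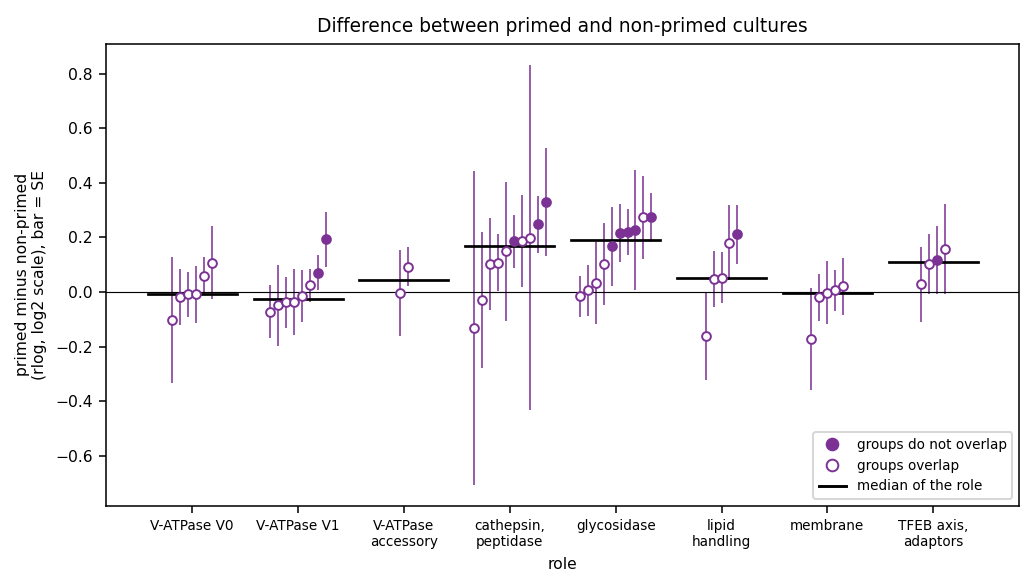
Difference between primed and non-primed cultures for each of the 50 genes (rlog, log2 scale), by role, with bars for the SE of the limma fit, filled points where the 2 groups of 3 libraries do not overlap, and a line at the median of each role. The medians are 0.19 for glycosidases and 0.17 for cathepsins and peptidases and lie near 0 for both pump sectors.

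With libraries weighted by their estimated spread, 2109 genes (13.5% of those tested) and 7 members passed, Atp6v1e1, Atp6v1f, Ctsa, Ctsh and Glb1 higher and Asah1 and Lamp2 lower in primed cultures. In that fit non-primed library 1 had a weight of 10.4 and primed library 3 of 7.29, while the other libraries had 0.133 to 1.65, so that the comparison rested mostly on 1 library a group.

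Of 108 further genes in a wider list of the lysosomal pathway, 104 were tested and none passed in any comparison. Few of all tested genes passed either: 0.102% in primed and 0.141% in non-primed against naive, and 0% between the injected groups. In primed against naive cultures 77 of 104 had higher means, with a median of 0.17, and in non-primed against naive 70 of 104, with a median of 0.09. The shares of all tested genes were 49.8% and 51.7%. At an unadjusted p below 0.05, 34 were higher and 3 lower in primed, and 21 higher and 6 lower in non-primed cultures. Of all tested genes, 9.43% were higher and 7.43% lower in primed, and 8.58% and 6.84% in non-primed cultures. The 14 genes of TFEB family control within that list, relatives of the factors and genes of the nutrient-sensing machinery that controls them, were higher for 12 in each comparison, with medians of 0.24 and 0.28. Among those higher in primed cultures with the smallest p were Tpcn2, a lysosomal cation channel, at 0.41 (SE 0.08), and Aga, aspartylglucosaminidase, at 0.53 (SE 0.11). Those lower in primed cultures were Ids, iduronate sulphatase, at -0.68 (SE 0.21), Naaa, an acid amidase, at -0.22 (SE 0.07), and the transporter gene Abca2 at -0.47 (SE 0.16). In non-primed cultures the nutrient-sensing GTPase gene Rragc stood 0.45 (SE 0.09) and the autophagy gene Gabarap 0.42 (SE 0.09) above naive, while Ids at -0.79 (SE 0.21), Naaa at -0.38 (SE 0.07) and Arsb, arylsulphatase B, at -0.34 (SE 0.10) were below it. Between primed and non-primed cultures 77 of 104 were higher in primed, against 50.3% of all tested genes, with a median of 0.08. The leading genes there were Ctsf at 0.39 (SE 0.12), Rnasek at 0.38 (SE 0.12) and Calcoco1 at 0.26 (SE 0.07) among the higher, and Vma21 at -0.36 (SE 0.21), Mcoln3 at -0.23 (SE 0.15) and Atg5 at -0.12 (SE 0.07) among the lower.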

How the data were processed

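The 9 libraries were made with a stranded mRNA kit, per the labels' protocols. Per the submitters' processing notes the tools were cutadapt 2.5, STAR 2.5.4a, Subread 1.6.1 with featureCounts, and DESeq2, with the GRCm38 genome. Annotation release, strand setting and transformation settings were not given in the sources used here. A single table was deposited by the authors, with rlog values on a log2 scale, and 19972 genes were at 0 in every library. Rlog scales libraries for depth, and counts were not used here, so the precision is that of the spread between 3 libraries.

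Symbols came from a table that matched 47224 identifiers, and coordinates from GENCODE M21 (GRCm38). Limma 3.58.1 in R 4.3.3 fitted 1 mean per group to all 9 libraries, with 6 residual degrees of freedom, moderated variances with a mean-variance trend and two-sided tests. Tested genes varied between libraries and averaged an rlog of 3 or more, which removed 12134. With 3 libraries a group, the smallest two-sided p of an exact test is 0.1. The fit was also run on simulated data with the same spread in every group, unlike these libraries, so that run does not test the calls made here. The members, the gene lists and the alternatives were chosen with earlier results of these data known. Values in every library are given for the members called in any comparison, the 12 with the smallest p in primed against naive, the 6 smallest in each other comparison, and Tfeb, Tfe3, Mcoln1, Ctsk, Ctss, Lamp1 and Atp6v0d1; Ctsc was added after its values were seen. Of the wider pathway the 3 smallest p in each direction are named, except 1 gene that is not reported here. Alternatives were no filter, no trend, 2 groups alone, sample weights, quantile normalization, a replicate block, the macrophage mean as a covariate, and leaving out each library.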

Additional observations from a re-analysis of the deposited data

How the results depend on the processing

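The counts of calls moved with the settings, while the median member difference stayed between 0.24 and 0.31 for primed against naive and between 0.15 and 0.27 for non-primed against naive. In primed against naive, 16 genes and 3 members passed; no filter, no variance trend and 2 groups alone each gave 0 genes and 0 members, sample weights 733 and 12, and the macrophage covariate 1 and 0. Leaving out 1 library gave 0 to 356 genes and 0 to 12 members. In non-primed against naive, 22 genes and 2 members passed; no filter gave 0 and 0, no variance trend 5 and 0, 2 groups alone 7 and 0, sample weights 621 and 11, and the covariate 1 and 0. Leaving out 1 library gave 0 to 355 genes and 0 to 6 members. The highest counts came without naive library 2. In primed against non-primed, sample weights gave 2109 genes, 7 members and a median member difference of 0.007 in place of 0, 0 and 0.06; no other setting called a gene. Quantile normalization ended the call of Lipa (limma adjusted p = 0.0725). Under the macrophage covariate 4 members in primed and 6 in non-primed cultures went from above naive to below it. Those with an unadjusted p below 0.05 in the reported fit were Ctsc, at -0.45 and -0.18, and Grn in primed cultures, at -0.014. The others were Atp6v0a1 and Ctsl in primed cultures, and Ctsb, Ctsl, Fuca1, Naglu and Grn in non-primed ones, at -0.16 to -0.002. Of 2450 member differences recomputed, 108 changed sign, 3 of them with an unadjusted p below 0.05 in the reported fit. The cause of these changes was not tested.

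A replicate block gave 51 genes and 4 members in primed against naive, adding Man2b1, and 0 members in non-primed against naive, where Atp6v1b2 and Fuca2 had a limma adjusted p of 0.0501. The deviations of same-numbered libraries correlated at 0.42, 0.61 and 0.10 between non-primed and primed cultures, and between -0.16 and 0.15 where naive libraries were involved. Those of different-numbered libraries correlated at -0.50 to 0.28 between non-primed and primed cultures, and at -0.19 to 0.18 where naive libraries were involved. With 3 libraries a group, these values cannot settle whether the numbers pair libraries. A fit of the injected groups alone with the block, added after seeing the data, called 0 genes. At an unadjusted p below 0.05 in that limma fit, 10 members were higher and 1 lower in primed cultures, against 3.71% and 5.88% of all tested genes.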
